A study of Mus musculus with 4 samples.

Results

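Myotube islands that each lay over several separate myoblast islands are described here for macroH2A, a histone H2A variant, in the mouse muscle cell line C2C12. The members were chosen by the overlap of the island lists from the 2 days. They are myotube islands on chromosomes 1 to 19 except chromosome 15, at most 50 kb wide, that overlapped at least 2 myoblast islands by 1 bp or more each. The rule gave 3510 islands of 26690 eligible myotube islands, which is 13.2% (exact 95% interval 12.7 to 13.6%), and of 29473 myotube islands in all. Since the overlap chose the members, every value below is a description, and the 13.2% is the background of that choice.

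The chromatin immunoprecipitation sequencing (ChIP-seq) had 1 macroH2A library from C2C12 myoblasts at day 0 of differentiation medium and 1 from C2C12 myotubes at day 5. C2C12 is an established line of muscle precursors, and both states came from that line without any genetic change named in the labels. Plates were coated with Matrigel, and differentiation was started by giving confluent cells medium with low horse serum in place of growth medium with fetal bovine serum. The antibody is labelled MacroH2A, with no isoform given, and 2 further samples are input chromatin, which was not analysed here. With 1 library per state no test of differentiation was possible, so each difference is one between these 2 libraries, and intervals cover counting error only.

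MacroH2A replaces conventional H2A in a part of the nucleosomes and carries a globular macrodomain outside the nucleosome core. It forms broad chromatin domains that often overlap repressed genes, and the macrodomain of one splice form binds ADP-ribose, which links it to the metabolism of NAD. C2C12 myoblasts leave the cell cycle and fuse into multinucleated fibres, so a map at both days can show whether neighbouring macroH2A domains lie apart or together in each state.

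An island is a run of enriched 600 bp windows that the caller joined across short gaps, listed with its number of ChIP reads. In both lists the narrowest gap between neighbouring islands was 1.8 kb, or 3 windows. On the 18 autosomes used, 27317 myoblast islands covered 277 Mb and 27089 myotube islands covered 297 Mb. Read totals inside these islands were 20948587 for myoblasts and 25399974 for myotubes, 1.21 times as many, and total library depth is not in the lists. The median island of the myoblast list had 72.7 reads per kb and that of the myotube list 80.6, or 1.11 times as many, and the lists were not scaled to each other. The part of this difference between the lists in the joining was not tested.

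Most joining islands brought together a pair of neighbours. Of the 3510, 2880 (82.1%) lay over 2 myoblast islands, 537 (15.3%) over 3, 82 over 4, 10 over 5 and 1 over 6. They met 7464 different myoblast islands, 27.3% of those on these chromosomes. The joined myoblast islands had a median width of 7.8 kb, the same as the 11336 myoblast islands met only by myotube islands over a single one. In 1706 members (48.6%) the narrowest joined island had at least 50% of the width of the widest, and in 704 (20.1%) it had less than 25%. The same shares over all neighbouring myoblast islands were not counted, and the 2 classes differ in breadth, so these values describe the members only.

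The joining islands were wide for the list. Their median width was 18.6 kb (quartiles 12 and 27.6 kb), against 7.8 kb for the 14659 eligible myotube islands over exactly 1 myoblast island and 6 kb for the 8521 over none. They made up 13.2% of the eligible islands by number but 27.2% by length and 28.2% by reads. A wide island has more room to meet a pair of others, so the rule itself favours wide islands.

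The member over the most myoblast islands lay on chromosome 6 from 51677401 to 51726600 (mm9, counting from 1). It was 49.2 kb wide and held 5068 reads at day 5, or 103 reads per kb. Its 6 myoblast islands were 7.8, 3, 4.2, 6, 11.4 and 10.2 kb wide and together held 3359 reads, or 78.8 reads per kb. The gaps between them, of 1.8, 2.4, 2.4, 1.8 and 4.2 kb, added up to 12.6 kb that was covered at day 5 alone. The first and the last myoblast island ran past the myotube island, so nothing was added at its outer borders.

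The next 4 members by this count each lay over 5 myoblast islands. On chromosome 8 from 64246201 to 64294800, 48.6 kb held 5653 reads at day 5, at 116 reads per kb against 79.3 reads per kb in the myoblast islands, and 18 kb was filled, of which 11.4 kb was a single gap. A pair of members lay on chromosome 14. From 61741201 to 61785600, 14.4 kb was filled and the density was 107 reads per kb at day 5 and 78.1 at day 0, and from 63410401 to 63454800, 11.4 kb was filled at 95.3 and 78.6 reads per kb. The member on chromosome 1 from 195241201 to 195291000 had 10.8 kb filled and densities of 87.3 and 72.8 reads per kb. In all 5, the myotube island was denser than its myoblast islands, by 1.2 to 1.47 times. Each was over 36 kb wide, and for all members over that width the median was 1.19 times. In islands of that width over exactly 1 myoblast island it was 1.15 times.

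**Figure D1:**
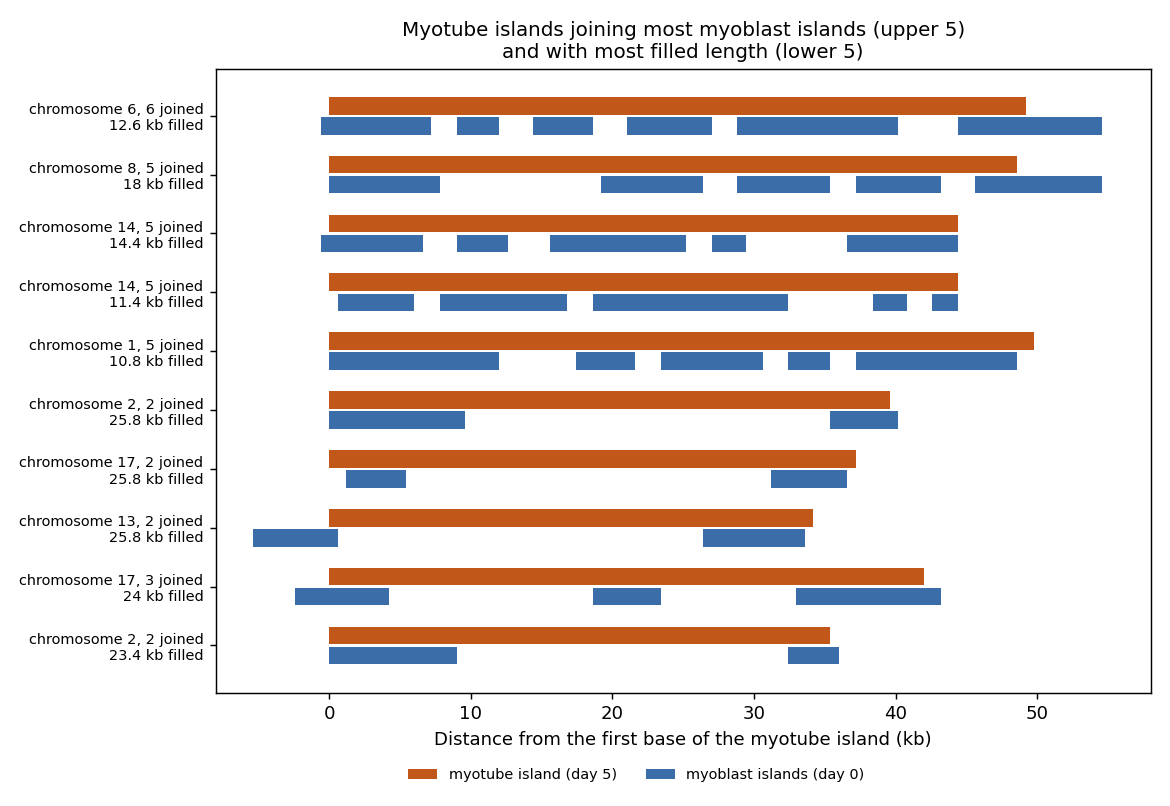
Positions of the myotube island (orange) and of the myoblast islands it overlaps (blue) for 10 members, as distance from the myotube island's first base in kb. The upper 5 join 5 or 6 myoblast islands across several gaps of 1.8 to 11.4 kb, and the lower 5 fill 23.4 to 25.8 kb, in 4 of them as a single gap.

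Most of the length of the members was already covered in myoblasts. Their 72.7 Mb consisted of 53.4 Mb (73.5%) under myoblast islands, 12.9 Mb (17.8%) filled between them and 6.35 Mb (8.74%) of extension beyond the outermost ones. The filled length was 11.3% and the extension 5.55% of the 114 Mb covered at day 5 alone on these chromosomes. Filled length per member had a median of 2.4 kb (quartiles 1.8 and 4.2 kb, highest 25.8 kb), or 16.7% of the member's width. In 2726 members (77.7%) more was filled between islands than was added at the borders.

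The narrowest gaps made up most of the filling. Of the 4245 gaps filled, 2198 (51.8%) were 1.8 kb wide and 809 (19.1%) were 2.4 kb wide. In 1655 members (47.2%) every filled gap was 1.8 kb, the least that the lists hold, and there 3 windows outside any island separated a pair of islands at day 0. The caller joined windows across gaps of up to 1200 bp, so a filled gap need not be enriched in each of its windows. Which windows were enriched is not in the lists, so filled length is length inside the myotube island only. Gaps of 6 kb or more were filled in 428 members (12.2%) and gaps of 12 kb or more in 83 (2.36%). Members with more than 50% of their width filled numbered 123 (3.50%).

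The longest filled stretches were single gaps of 25.8 kb in 3 members. On chromosome 2 from 49266001 to 49305600, myoblast islands of 9.6 and 4.8 kb stood at the ends of a 39.6 kb myotube island, which had 74.3 reads per kb against 74.1 in the myoblast islands. On chromosome 17 from 64514401 to 64551600 the densities were 82.6 and 68.6 reads per kb, with myoblast islands of 4.2 and 5.4 kb. On chromosome 13 from 116598001 to 116632200 they were 82.4 and 72.6 reads per kb, and the first myoblast island entered the member by only 0.6 kb. The ratio of the chromosome 2 island was 1.003 (0.935 to 1.08), below the median of 1.12 over all members, with the lists unscaled. Reads inside the gap at day 0 are not in the lists, so these ratios set the whole myotube island against the flanking myoblast islands.

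A second member of chromosome 17, from 62871601 to 62913600, lay over 3 myoblast islands and filled 2 long gaps of 14.4 and 9.6 kb. Its density was 84.1 reads per kb at day 5 and 66.5 in the myoblast islands. On chromosome 2 from 118344001 to 118379400 a gap of 23.4 kb was filled, at 87.3 and 87.1 reads per kb. These 5 members with the most filled length therefore had density ratios from 1.003 to 1.26.

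To see how often a gap closed, each of the 27299 gaps between neighbouring myoblast islands was taken as a candidate. A gap counted as bridged when 1 eligible myotube island covered it from end to end and reached both neighbours. In all, 4245 gaps (15.6%, 15.1 to 16.0%) were bridged, and 5012 when myotube islands over 50 kb were allowed. Myotube islands did not touch 9580 gaps (35.1%).

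Wider gaps were bridged less often. Of the 4889 gaps of 1.8 kb, 45% (43.6 to 46.4%) were bridged, of the 2399 gaps of 2.4 kb 33.7% (31.8 to 35.7%), and of the 1312 gaps of 3 kb 25.2% (22.8 to 27.6%). Gaps over 6 and up to 9 kb were bridged in 9.74%, and those over 18 and up to 30 kb in 0.684%. No gap over 30 kb was bridged, of 7303, also when myotube islands over 50 kb were allowed. Around gaps of 1.8 kb the myoblast islands were somewhat denser where the gap was bridged by a myotube island of any width (median 76.6 reads per kb, 2584 gaps) than where it was not (73.9, 2305 gaps).

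The same count with the days swapped gave lower shares. Of the 4618 gaps of 1.8 kb between myotube islands, 35.8% (34.4 to 37.2%) were covered from end to end by a myoblast island of at most 50 kb. Over all widths 12.04% (11.6 to 12.4%) of 27071 myotube gaps were bridged at day 0, so a myoblast gap was bridged 1.29 times as often as a myotube gap. The intervals of the forward and swapped shares did not overlap for gaps of 1.8 kb, of 2.4 kb, or over 3 and up to 4.2 kb (19.6% against 14.99%). They overlapped for gaps of 3 kb (25.2% against 22.9%) and in every class above 4.2 kb, such as gaps over 9 and up to 12 kb (4.12% against 4%). These intervals take gaps as independent and do not cover differences between libraries, so whether they overlap is a description only.

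**Figure D2:**
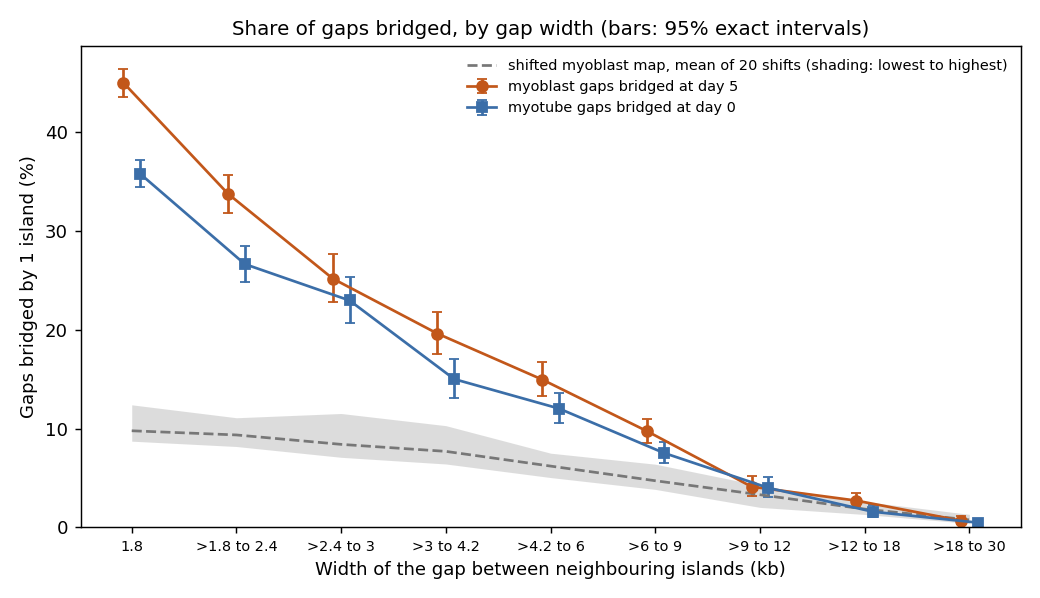
Share of gaps between neighbouring islands that 1 island of the other day covered from end to end (percent), by gap width in kb, with exact 95% intervals. Orange gives myoblast gaps at day 5, blue myotube gaps at day 0, and the dashed line and shading the mean and range of 20 shifted myoblast maps; the measured shares fall from 45% and 35.8% at 1.8 kb to 4.12% and 4% for gaps over 9 and up to 12 kb.

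Joining at day 5 was also more frequent than the reverse by island. Of 26961 eligible myoblast islands, 2855 lay over 2 or more myotube islands, which is 10.6% (10.2 to 10.96%), against 13.2% for joining. The ratio of the numbers was 1.23 (1.17 to 1.29). Islands over 3 or more of the other day were 17.9% of the joining islands (630) and 12.4% of the splitting ones (355). Splitting islands opened 9.93 Mb between their myotube islands, against 12.9 Mb filled by the joining islands. Both directions thus occurred between these lists, and joining was the more frequent.

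For the level given by position alone, the myoblast map was moved along each chromosome by 20 fixed steps of 1.2 Mb and the rule was applied again. The moved maps gave a mean of 1055 joining islands (982 to 1341), so the measured 3510 were 3.33 times the mean. With 10 steps of 0.12 Mb the mean was 1646 (1341 to 2281) and the measured number 2.13 times it. The number fell with distance, from 2281 when moved by 0.12 Mb to 1341 when moved by 1.2 Mb, so this mean depends on where the steps end. The measured number was 1.54 times that of the nearest moved map. With steps of 1.2 Mb, 5546 myotube islands on average touched a myoblast island, against 18169 as measured. Among islands that touched any, the share that joined 2 or more was 19.3% as measured and 19% (18.2 to 20.2%) with these moved maps. With steps of 0.12 Mb this share was 20.5% (19.2 to 22.6%), so the measured share was near the low end of that range. The measured map thus stood apart from the moved maps in how many islands touched. Its share of touching islands that joined was not above their ranges. The joined islands themselves differed, since maps moved in steps of 1.2 Mb had a median filled share of 23.3% (22.2 to 25%), above the measured 16.7%.

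The gaps show where the measured map stood apart from the moved ones. For gaps of 1.8 kb the moved maps gave 9.77% bridged (8.72 to 12.4%) against 45% as measured. For gaps over 6 and up to 9 kb they gave 4.72% (3.85 to 6.39%) against 9.74%. For gaps over 9 and up to 12 kb the measured 4.12% lay inside the range of the moved maps (2.03 to 4.24%), and for those over 12 and up to 18 kb the measured 2.71% lay just above it (1.31 to 2.62%). The moved maps keep each list's islands and gaps but not any property of the sequence, and are given as a description with no p-value.

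Joining was more frequent in wider islands. Of eligible myotube islands up to 6 kb wide 1.16% joined, of those over 12 and up to 18 kb 24.7%, of those over 24 and up to 36 kb 61.4%, and of those over 36 kb 75.1% (71.1 to 78.9%). In myoblasts, splitting islands made up 1.01%, 23.0%, 54.6% and 58.3% (53.3 to 63.2%) of the same width classes. The intervals for the 2 days overlapped for islands up to 18 kb and were apart in each class over 18 and up to 50 kb. With maps moved in steps of 1.2 Mb the share for islands over 36 kb was 20.8% (15.5 to 25.8%). Joining and splitting shares thus parted in islands over 18 and up to 50 kb. Above 50 kb, outside the rule, their intervals overlapped (75.4 to 83.5% and 67.5 to 77.0%).

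**Figure D3:**
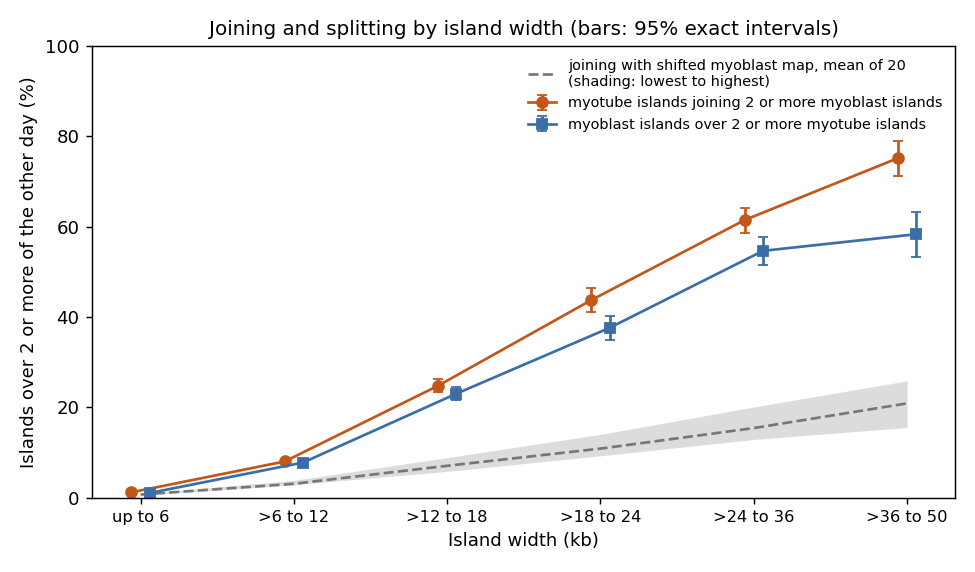
Share of islands that lay over 2 or more islands of the other day (percent), by island width in kb, with exact 95% intervals. Orange gives myotube islands and blue myoblast islands, which reach 75.1% and 58.3% in the widest class; the dashed line and shading give the mean and range with the myoblast map moved in 20 steps.

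At the width limit itself the members did not stand apart from those left out. The 10 widest members were all 49.8 kb wide, lay over 2 to 5 myoblast islands and had a median of 5.1 kb filled. The 10 narrowest joining islands beyond the limit were 50.4 to 51 kb wide, lay over 2 to 4 myoblast islands and had a median of 6.3 kb filled. At the limit of overlap, 351 members (10.0%) had a myoblast island that entered by only 0.6 kb, a single window, and 299 (8.52%) met the rule only with such an overlap. In the other direction, 219 islands over exactly 1 myoblast island had another directly abutting, which did not count.

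At the outer borders, the members more often ended inside a myoblast island than beyond it. Of their 7020 outer borders, 2034 (29.0%) lay beyond the outermost myoblast island, 1092 (15.6%) at the same window and 3894 (55.5%) inside the myoblast island. The median distance was 1.8 kb where the myotube island reached further and 5.4 kb where it stopped short. Extension was found at both borders in 332 members (9.46%), at 1 border in 1370 (39.0%) and at none in 1808 (51.5%). Myotube islands over exactly 1 myoblast island reached further at 35.4% of borders and stopped short at 48.4%, with median distances of 2.4 and 4.2 kb. With the days swapped, splitting myoblast islands reached further at 22.7% of outer borders and stopped short at 64.0%, with median distances of 1.8 and 6 kb. Ending inside an outermost island of the other day was thus found in both directions, and more often in the swapped count. It is therefore not particular to the joining islands.

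Many members were not a simple union of whole myoblast islands. Only 765 (21.8%) held every joined island whole, and 146 of these joined 3 or more. Myoblast islands ran past the members by 33.8 Mb in all, of which 18.8 Mb (55.7%) lay in another myotube island and 14.96 Mb in none (a myoblast island met by several members counts at each). In 1575 members (44.9%) at least 1 joined island also touched another myotube island, and 291 myoblast islands were met by 2 or more members. Such a myoblast island was connected on one side and cut on another between the days.

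The largest extensions were on chromosomes 19 and 6. On chromosome 19 from 30178201 to 30227400, 33.6 kb was added ahead of 2 myoblast islands of 9 and 4.8 kb, whose gap of 1.8 kb was also filled, at 93.9 reads per kb against 69.6 at day 0. On chromosome 6 from 121071601 to 121112400, 28.8 kb was added on the same side, at 82.6 against 66.2 reads per kb. On chromosome 19 from 44417401 to 44458800, 4 myoblast islands of 3 to 3.6 kb were joined and 21.6 kb was added, with 79.2 reads per kb at both days. Other members of chromosome 6, from 59374201 to 59409600 and from 115449001 to 115491000, gained 21.6 and 21 kb. Of the 5 longest extensions, 3 lay on chromosome 6 and 2 on chromosome 19.

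Reads per kb were compared between a member at day 5 and its own myoblast islands at day 0, each taken whole, as the sum of reads over the sum of widths. Members ranged from 58.2 to 156 reads per kb with a median of 83.3, and their myoblast islands from 56.4 to 118 with a median of 74.8. The ranges of the 2 days overlapped over most of their length. The ratio of myotube to myoblast density had a median of 1.12 (quartiles 1.02 and 1.21) and was above 1 in 2836 members (80.8%). For islands over exactly 1 myoblast island the median was also 1.12 and the ratio was above 1 in 79.1%. The day 5 density also takes in length outside the myoblast islands, and this differed between the sets. In members it was 17.8% filled and 8.74% extension, and in islands over exactly 1 myoblast island 24.9% extension. With this limit, the medians of both sets were alike over all widths, but not within them. Of islands over 6 and up to 12 kb that touched a myoblast island, 13.6% (12.6 to 14.8%) joined where the ratio was at or below the median of the islands over exactly 1, and 9.03% (7.96 to 10.2%) where it was above. Over 36 kb the order was turned, with 65.4% (57.3 to 72.9%) and 79.4% (74.8 to 83.5%).

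The median member held 1554 reads at day 5 and its myoblast islands 1498 at day 0, a relative counting error of 2.54% and 2.58%. With the exact interval of each ratio, 1004 members (28.6%) lay above the median ratio of islands over exactly 1 myoblast island and 959 (27.3%) below it. Over all 18169 eligible islands that touched a myoblast island, 23.5% lay above and 22.3% below. Members hold more reads than the others and so have narrower intervals, and the shares on both sides were close to each other.

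Density ratios were higher in members over 3 or more myoblast islands than over 2, and, above 6 kb, in wider members. The median was 1.11 in members over 2 myoblast islands, 1.16 over 3 and 1.15 over 4 or more. By width it was 1.09 for members up to 6 kb, 1.05 for those over 6 and up to 12 kb and 1.19 for those over 36 kb. Islands over exactly 1 myoblast island had 1.15, 1.09 and 1.15 in the same classes, so their narrowest and widest classes had like medians. Above 6 kb their medians also rose with width, from 1.09 to 1.15, so this rise was shared by both sets. Members over 3 or more were also wider, and the part of the number joined was not tested apart from width.

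Members with a larger filled share had lower ratios. The median was 1.15 in the 818 members filled up to 10% and 1.04 in the 123 members filled over 50%. The members filled up to 10% had a median width of 27.6 kb and those filled over 50% 14.4 kb, so width moved with this too. Within widths over 12 and up to 18 kb the median was 1.102 where up to 20% was filled and 1.09 where more was, and for widths over 36 kb it was 1.18 and 1.205. The order by filled share was thus small or turned around once width was held. At day 5 itself, members over 12 and up to 18 kb wide had a median of 81.1 reads per kb where up to 20% was filled and 78.5 where more was.

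**Figure D4:**
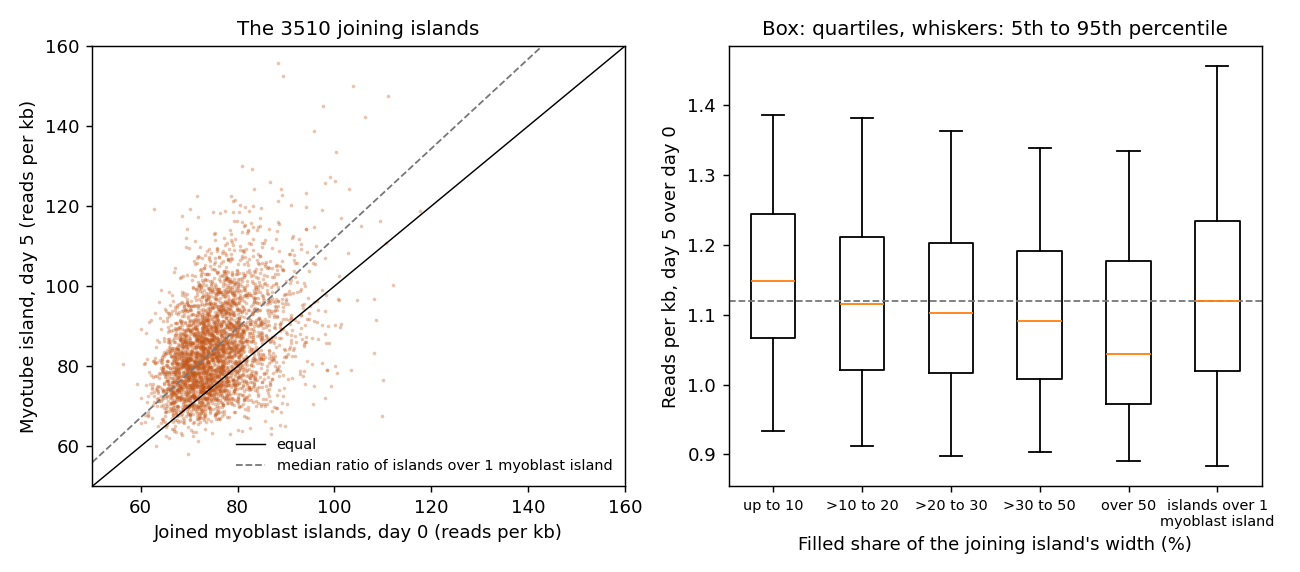
Left, reads per kb of the 3510 members at day 5 against their myoblast islands at day 0, 1 point per member, with the line of equal density and a dashed line at the median ratio of islands over exactly 1 myoblast island. Right, the density ratio of the days (myotube over myoblast) by filled share in percent, as boxes of quartiles with medians from 1.15 down to 1.04, and for islands over exactly 1 myoblast island (1.12).

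The member with the highest ratio lay on chromosome 9 from 95515801 to 95537400. It had 119 reads per kb at day 5 against 62.8 in its myoblast islands, a ratio of 1.90 (1.75 to 2.06). Those islands took up 12 kb of its 21.6 kb, so the day 0 density of the whole stretch was not measured. The chromosome 13 member from 96388801 to 96410400 had 156 reads per kb at day 5 against 88.4 at day 0, and the chromosome 19 member from 34432201 to 34472400 had 152 against 89.5. The other 2 of the 5 highest were on chromosome 11 from 64723801 to 64738200 (118 against 68.5 reads per kb) and chromosome 2 from 107858401 to 107887200 (123 against 71.5). These 5 filled no more than 3.6 kb each, and over all members the median was 2.4 kb and the upper quartile 4.2 kb.

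The lowest ratio was 0.615 (0.551 to 0.685) on chromosome 18 from 63801001 to 63808200, with 67.5 reads per kb at day 5 and 110 at day 0. One of its myoblast islands was a single window of 0.6 kb with 81 reads. On chromosome 4 from 118014601 to 118028400, a myotube island of 13.8 kb with 76.6 reads per kb joined the end of a 52.8 kb myoblast island to a neighbour of 7.2 kb, at 110 reads per kb together. The others were on chromosome 16 from 93390601 to 93405000 (65.0 and 89.8 reads per kb), chromosome 1 from 120894001 to 120901200 (63.1 and 86.9) and chromosome 10 from 41883001 to 41897400 (72.2 and 98.1). Each of these 5 filled a gap of 1.8 or 2.4 kb. The day 0 value covers whole myoblast islands, of which 50.4 kb lay outside the member on chromosome 4 and 7.2 kb outside the one on chromosome 18, so the density of the member's own stretch at day 0 was not measured.

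Of the 5 members with most reads, 4 were wide islands that filled a single narrow gap. On chromosome 2 from 166231201 to 166278600, 6330 reads gave 134 reads per kb, against 100 in myoblast islands of 40.2 and 49.2 kb that lay 1.8 kb apart. On chromosome 6 from 117290401 to 117337800, 5895 reads gave 124 reads per kb against 83.5, with 3.6 kb filled. On chromosome 13 from 31549201 to 31599000, 5624 reads gave 113 reads per kb against 78.8, with 1.8 kb filled. The chromosome 19 island with 152 reads per kb also filled only 1.8 kb, and the fifth is the chromosome 8 island over 5 myoblast islands. Input chromatin was not analysed here, so more macroH2A and more DNA at a place cannot be told apart.

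Every one of the 18 chromosomes had members. Their share of eligible islands ran from 6.15% on chromosome 7 (43 members) and 9.73% on chromosome 9 (102) to 15.9% on chromosome 11 (322). Weighted to the same width classes, the shares of these 3 chromosomes were 11.4%, 13.3% and 14.4%, so much of the spread went with island width. Joining outnumbered splitting on all 18 chromosomes, by 1.08 times on chromosome 14 up to 1.51 times on chromosome 12. Gaps of 1.8 kb were bridged more often than in the swapped count on 17 of the 18, most on chromosome 6 (57.0% against 27.1%). On chromosome 17 the shares were 39.4% and 40.6%.

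**Figure D5:**
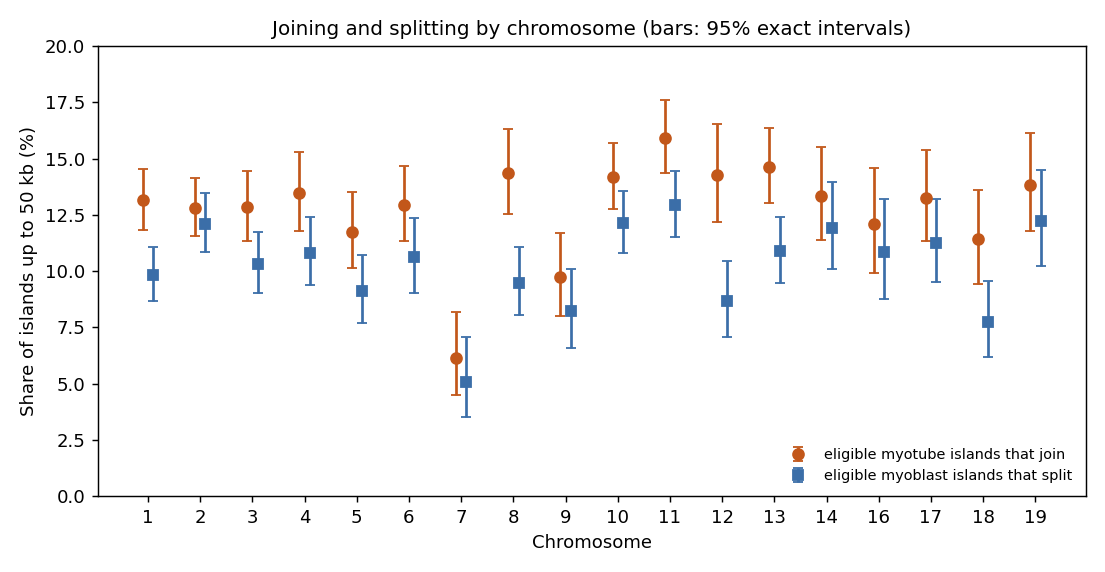
Share of islands up to 50 kb that joined at day 5 (orange, of eligible myotube islands) or split (blue, of eligible myoblast islands), in percent with exact 95% intervals, by chromosome. Joining is above splitting on all 18 chromosomes, with intervals apart on chromosomes 1, 8, 12 and 13 only, and chromosome 7 has the lowest shares of both.

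Members were spread unevenly along the chromosomes. Of the 1857 windows of 1 Mb with an eligible island, 1136 held a member, and 259 held 5 or more, with 1682 of the 3510 members between them. These 259 windows, picked for their members, held 7247 eligible islands, of which 23.2% were members against 13.2% over all. The fullest window was chromosome 2 from 45 to 46 Mb, with 14 members among 42 eligible islands and 59.4 kb filled, beside 6 splitting islands. Chromosome 10 from 16 to 17 Mb had 13 members and the most filled length of the 10 fullest windows, 96.6 kb, beside 4 splitting islands. Joining and splitting occurred in the same windows in 913 cases, and 223 windows had members and no splitting island.

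Of the 3426 eligible islands that directly followed a member, 640 (18.7%) were members too, against 13.2% over all. The part of island width in this was not tested. The longest run was 6 islands on chromosome 2 between 71845201 and 71968200, which lay over 2 or 3 myoblast islands each. Their densities were 71.3 to 81.7 reads per kb at day 5 and 67.4 to 78.3 at day 0, and the third of them was less dense at day 5 (72.8 against 78.3). Over this stretch the map at day 5 kept gaps while closing others.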

How the data were processed

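MacroH2A ChIP-seq island lists of 2 libraries (myoblasts day 0, myotubes day 5) were used, and 2 input samples were not analysed here. The deposited lists give chromosome, start, inclusive end and a count of reads per island, unscaled as far as the values show. Per the submitters' processing notes, the build was mm9 (NCBIM37) and the tools, listed without roles, were SICER 1.1, MACS 1.4.2, Bowtie2 2.2.6 and CASAVA 1.4. Names of the deposited lists show windows of 600 bp, joining gaps of 1200 bp and an FDR of 0.01. How duplicates and input were handled is not given in the sources used here.

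The members and the lists compared were chosen with earlier results of these data known. Overlaps were computed with Python 3.11.15, NumPy 2.4.6, pandas 2.3.3 and SciPy 1.17.1, plotted with matplotlib 3.10.9, and checked with bedtools 2.31.1, which also gave 3510 members. As a check of the code, 200 gaps were closed in a copy of the myoblast list of 30016 islands, and 200 of 200 were found. The copy held no partial overlaps, so these were not checked in this way. Intervals are exact (Clopper-Pearson, 95%). Those of shares take islands or gaps as independent, although members were spread unevenly and both directions use the same 2 lists. Moved maps wrap at the last island of either list. Regions named are the 5 members with most myoblast islands, filled length, extension, reads, and highest and lowest density ratio. The fullest windows and the longest run were chosen after their values were seen. Alternatives changed overlap, width limit, chromosomes, merging of gaps and filters on low islands. No gene annotation or genome of mm9 was used here, so genes and sequences are not given.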

Additional observations from a re-analysis of the deposited data

How the results depend on the processing

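Of 111 recomputed values 50 stayed within tolerance (1.5 times for numbers of islands, the main value's 95% interval otherwise) and 61 moved, none with a turned direction. Joining outnumbered splitting under each alternative run. The density ratio stayed above 1, but the unscaled lists differ by 1.11 times in median density, so this does not set the members apart. The ratio of islands over exactly 1 myoblast island was not recomputed under these alternatives. Shares in percent without a name are of eligible islands that joined. With at least 1800 bp of overlap the share was 10.99%, the filled share 14.58% and the density ratio 1.123. With 50% of each myoblast island inside there were 2023 (7.58%, ratio 1.51), with 12.5% filled, a median extension of 1.8 kb in place of 0 and a density ratio of 1.136. Outer myoblast islands with less than 50% inside were dropped there. Length under them and the gap next to them thus count as extension, so the 1.8 kb is not all new at day 5. A width limit of 25 kb gave 9.69% and a ratio of 1.15, with 18.42% filled, a density ratio of 1.092 and 9.66% of gaps bridged. A limit of 100 kb gave 14.01%, 15.94% filled, a density ratio of 1.122 and 17.89% of gaps bridged. Merging both lists across 3 kb, which removes the narrow gaps by construction, left 1138 (6.42%), with 6.6 kb and 26.75% filled, 1.2 kb of extension, a density ratio of 1.081 and 6.59% bridged. Merging across 5 kb left 826 (5.29%), with 8.4 kb and 30.61% filled, 1.2 kb of extension, 1.052 and 5.26%. Leaving out the 25% of islands with fewest reads gave 12.24%, 13.98% filled, a density ratio of 1.127 and 13.59% bridged. Islands of at least 3 kb gave 12.68%, 15.79% filled and 14.83% bridged. A floor of 70 reads per kb, scaled at day 5 by 1.11, left 1652 (10.25%, ratio 1.404), with 13.04% filled, a density ratio of 1.123 and 11.65% bridged. The unscaled floor left 2071 (8.61%, ratio 1.14), with 14.29% filled, 1.091 and 14.28%. Alternatives chosen after seeing the data were merging across 1.8 kb, with 2022 (9.32%), 3.6 kb and 19.61% filled, 1.103 and 10.33% bridged, and a myotube list cut by density until it covered as much as the myoblast list, with 13.68%, 1.123 and 14.99%. Moving the map in steps of 0.12 Mb gave 1645.5 joining islands on average. Adding chromosome 15 or X moved none of these values. Causes beyond construction were not tested. The replicate number is 1 in both groups. No paired analysis was possible because each group has 1 library.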

Other observations

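Outside the rule, chromosome 15 had as many joining as splitting islands up to 50 kb, 145 (9.84%, 8.37 to 11.5%) and 144 (9.72%), a ratio of 1.01 against 1.23 on the other autosomes; the difference of these ratios was not tested. Its joining islands had a median width of 27 kb and a density ratio of 1.12. On X, 65 of 748 myotube islands joined (8.69%, 6.77 to 10.9%) and 49 of 1081 myoblast islands split (4.53%, 3.37 to 5.95%). The median density ratio of the X members was 1.06.

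Above 50 kb, 318 of 399 myotube islands on the 18 autosomes lay over 2 or more myoblast islands (79.7%, 75.4 to 83.5%), and 258 of 356 myoblast islands lay over 2 or more myotube islands (72.5%, 67.5 to 77.0%). The island over the most was on chromosome 1 from 71861401 to 72099000, over 10 myoblast islands, with 36 kb filled and 103 reads per kb at day 5 against 78.4 at day 0. Islands on chromosome 12 from 36320401 to 36417600 and on chromosome 16 from 92930401 to 93028200 each lay over 9, with 24.6 and 21.6 kb filled.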
